A study of Mus musculus with 12 samples.

Results

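The vacuolar proton pump genes and their partners in acid secretion were followed in newborn mouse calvaria, the flat bones of the skull roof. The set held 30 of the 23715 genes listed. It comprised 23 pump subunit genes, 2 accessory subunit genes, the Atp6v0c copy named Atp6v0c-ps2, and 4 genes that supply the acid and the chloride. Members were chosen by function, with the differences between genotypes in these same libraries already known. The counts below therefore describe them and are no independent evidence of a direction.

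The vacuolar ATPase couples ATP hydrolysis by its cytosolic V1 sector to proton transport through its membrane V0 sector, and it acidifies lysosomes and endosomes in every cell. Osteoclasts, the cells that resorb bone, place large numbers of it in the ruffled border that faces the bone surface. There a V0 sector carrying the a3 isoform, encoded by Tcirg1, and the d2 isoform, encoded by Atp6v0d2, is used. Carbonic anhydrase 2 generates the protons, Slc4a2 exports the bicarbonate in exchange for chloride, and the Clcn7 and Ostm1 complex carries chloride across the ruffled border.

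RNA sequencing was carried out on 12 C57BL/6 newborns in 4 groups of 3, 1 library per mouse. The mice came from a pair of crosses, called P and R below, each compared with its own controls. P-KO mice lacked Med23 in mesenchymal stem cells through Prx1-Cre, and P-Ctrl mice, labelled wild type, were described in the methods as littermates with floxed Med23. Med23 encodes a subunit of the Mediator complex. R-Het mice were Runx2+/- and R-WT mice were wild type, Runx2 being the transcription factor that specifies osteoblasts. Prx1-Cre acts in mesenchyme, whereas osteoclasts derive from blood cells. In R-Het mice Runx2 was heterozygous in every cell. The comparisons asked how loss of MED23 and loss of 1 Runx2 allele changed the calvarial transcriptome.

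Values are FPKM, fragments scaled to transcript length and to the number of mapped fragments, summed over the transcripts of a gene. Libraries held roughly 7700000 to 11900000 fragments, as estimated from the smallest steps in the values. The targeted genes did not separate the genotypes. Med23 ranged from 4.54 to 5.99 FPKM in P-Ctrl and from 4.89 to 5.74 in P-KO, and Runx2 from 27.3 to 37.7 in R-WT and from 30.4 to 35.7 in R-Het. A transcript sum does not resolve a deleted exon, so genotypes below are those of the labels. Xist, transcribed in females, exceeded 1 FPKM only in P-Ctrl mice 2 and 3 and R-WT mouse 1, and reached at most 0.0660 elsewhere. Sex was thus unevenly spread between controls and mutants. Skeletal muscle markers summed to 1903 to 5609 FPKM in R-WT and 26.7 to 188 in R-Het, and to 22.8 to 1377 in P-Ctrl and 596 to 4154 in P-KO. Their mean was below that of the controls in R-Het and above it in P-KO, where the groups overlapped, and their part in the results was not tested.

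The defining markers of osteoclasts were abundant in these calvaria. Acp5, the tartrate-resistant acid phosphatase, stood between 1020 and 2663 FPKM in the 12 mice, and Ctsk, the collagen-degrading cathepsin, between 1916 and 4380. These are bulk samples, so fewer osteoclasts and less RNA per osteoclast cannot be told apart in any value below.

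Of the 30 members, 25 reached 1 FPKM in at least 3 mice and were tested. The other 5 are isoforms known from kidney, epididymis, lung, testis or other restricted sites. Atp6v0a4, the a4 subunit, lay between 0.0659 and 0.298 FPKM, and Atp6v1c2 between 0 and 0.291. Atp6v1b1 was listed at 0 in 11 of 12 mice, and Atp6v1e2 and Atp6v1g3 were listed at 0 in all 12. The tested subunits spanned a wide range, with means over the 12 mice from 2.03 FPKM for Atp6v1g2, the neuronal G isoform, to 539 for Atp6v0e, a small V0 subunit.

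Of 18 tested pump subunit genes, 6 were lower in R-Het mice, and the other 12, which include the ubiquitous a and d isoforms, did not pass. The 6 were both osteoclast isoforms and 4 ubiquitous subunits, Atp6v0c, Atp6v1a, Atp6v1b2 and Atp6v1c1. The call of Atp6v0c was lost when the level of its copy was added. Of 16 tested ubiquitous subunits, accessory ones included, 12 had every R-Het mouse below every R-WT mouse. Of the 25 tested members, 8 were lower and 1 was higher in R-Het at an adjusted p below 0.05, and 21 had a log2 fold change below 0. Over all 13059 genes tested, 1.89% were called, 1.49% lower and 0.398% higher, and 43.9% had a log2 fold change below 0. The median log2 fold change was -0.48 for the members and 0.025 for all genes. In 18 members every R-Het mouse was below every R-WT mouse, against 10.4% of all genes, and in 1, the copy, every R-Het mouse was above, against 10.7%.

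No member passed in the P cross, where 1.57% of all genes were called, 0.559% lower and 1.01% higher. A log2 fold change below 0 was found for 17 of the 25, against 38.7% of all genes. Every P-KO mouse was below every P-Ctrl mouse for 2 members, Tcirg1 and Atp6v0c, against 7.68% of all genes, and above for 1, Atp6v0e2, against 19.6%. The median there was -0.14 for the members and 0.06 for all genes. Only 1 member of the 25, Tcirg1, had an unadjusted p below 0.05, against 2781 of all 13059 genes. These fold changes are differences of log2(FPKM + 1), which understates the change of genes with low values, and p-values are from limma with Benjamini-Hochberg adjustment over all genes tested.

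**Figure D1:**
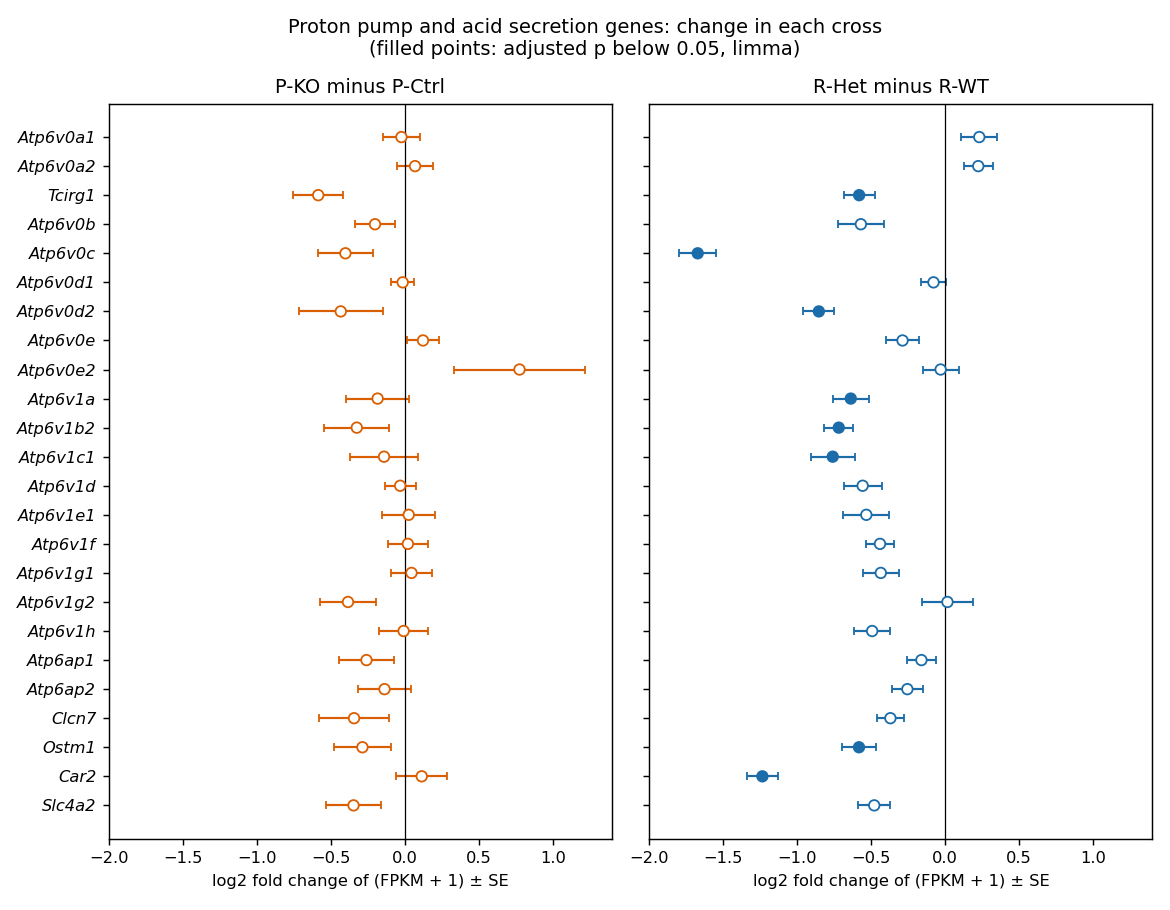
Log2 fold change of FPKM + 1 with its standard error for 24 tested members, on the left for P-KO minus P-Ctrl and on the right for R-Het minus R-WT (3 mice per group). Filled points passed an adjusted p below 0.05. In the R cross 8 points are filled, all to the left of 0, and Atp6v0a1, Atp6v0a2 and Atp6v1g2 lie to its right. Atp6v0c-ps2, at 3.63 in the R cross, is off the scale and is not drawn.

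The a subunits belong to the V0 sector, and 4 genes encode them. Tcirg1, encoding a3, stood at 90.9, 89.1 and 85.4 FPKM in R-WT and at 62.9, 50.7 and 63.5 in R-Het. The groups did not overlap, with a log2 fold change of -0.58 (SE 0.10, adjusted p = 0.040). The P groups were ordered alike. Tcirg1 stood at 128, 96.0 and 79.1 FPKM in P-Ctrl and at 61.5, 71.5 and 64.5 in P-KO. All 3 P-KO mice were again below all controls, with a log2 fold change of -0.58 (SE 0.17) that did not pass adjustment (adjusted p = 0.118).

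The ubiquitous a subunits did not share this pattern. Atp6v0a1 stood at 7.28, 8.76 and 7.15 FPKM in R-WT and at 10.6, 9.12 and 8.03 in R-Het, with a log2 fold change of 0.23 (SE 0.12, adjusted p = 0.431). Atp6v0a2 stood at 11.4, 11.7 and 10.7 in R-WT and at 14.3, 14.1 and 11.7 in R-Het, with a log2 fold change of 0.22 (SE 0.10, adjusted p = 0.342). In both genes the R-Het mean was above the R-WT mean and the groups overlapped. For P-KO against P-Ctrl the log2 fold changes were -0.02 for Atp6v0a1 (SE 0.12) and 0.07 for Atp6v0a2 (SE 0.12), and neither passed.

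The make-up of the a subunits can be given as a share. Tcirg1 made up 82.9%, 81.3% and 82.5% of the summed a subunit level in R-WT and 71.4%, 68.4% and 76.1% in R-Het. In P-Ctrl it made up 86.3%, 81.6% and 81.8%, and in P-KO 76.2%, 77.8% and 75.8%. The mutant mice of both crosses lay below their controls without overlap. Since the isoforms were set against each other by the choice of genes, no test of this share is given.

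Subunit d is a further part of the V0 sector. The osteoclast gene Atp6v0d2 stood at 114, 97.0 and 108 FPKM in R-WT and at 61.4, 51.6 and 62.2 in R-Het. The R-Het mice were all lower, with a log2 fold change of -0.85 (SE 0.11, adjusted p = 0.016). The ubiquitous Atp6v0d1 stood at 78.6, 83.4 and 87.0 in R-WT and at 81.2, 81.3 and 73.1 in R-Het, with a log2 fold change of -0.08 (SE 0.08, adjusted p = 0.712). Atp6v0d2 was 1.28 ± 0.148 times Atp6v0d1 in R-WT (SD, n = 3) and 0.748 ± 0.108 times in R-Het. The osteoclast isoform thus exceeded the ubiquitous one in each R-WT mouse and fell short of it in each R-Het mouse.

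For Atp6v0d2 in the P cross, 1 mouse carried the difference. Its levels were 158, 78.1 and 75.1 FPKM in P-Ctrl and 73.5, 84.5 and 59.9 in P-KO. P-Ctrl mouse 1 was far above the rest, and the other mice of both groups overlapped. The log2 fold change was -0.43 (SE 0.28, adjusted p = 0.419), and without P-Ctrl mouse 1 it was -0.09. Atp6v0d1 stood at 82.4 ± 3.26 FPKM in P-Ctrl and 81.6 ± 3.61 in P-KO (SD, n = 3).

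**Figure D2:**
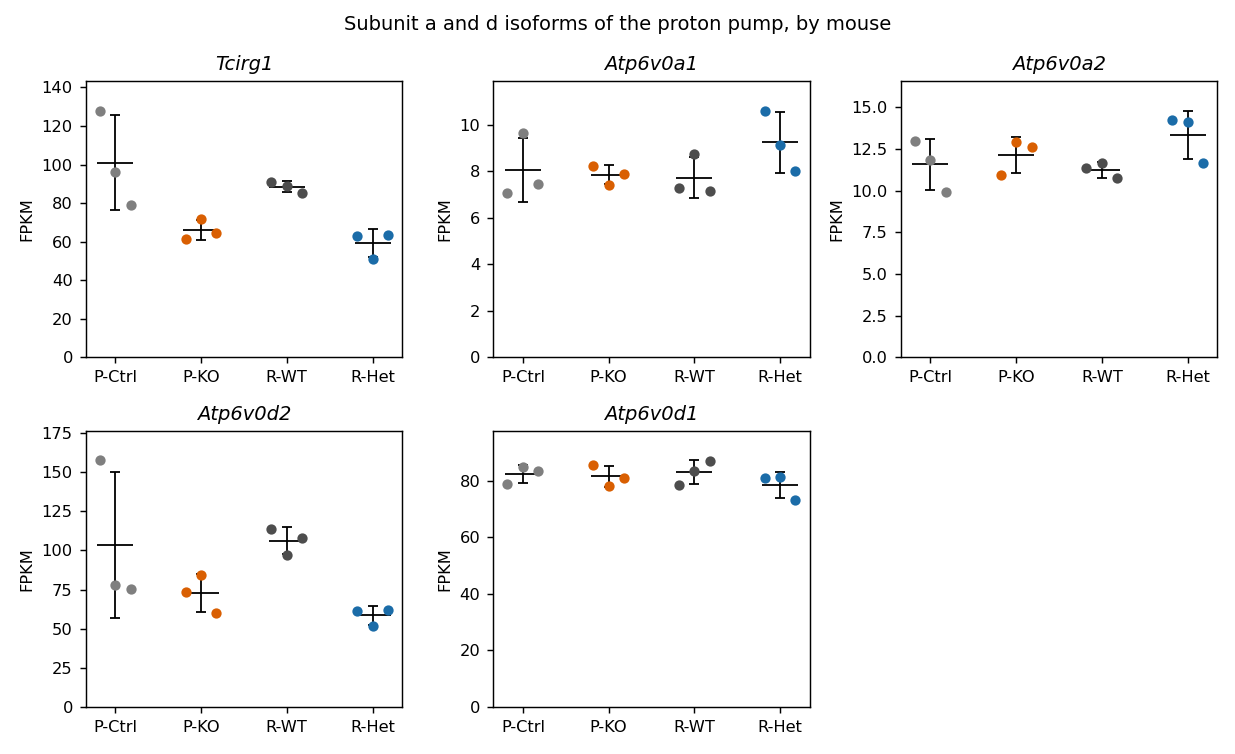
FPKM of the a subunit genes Tcirg1, Atp6v0a1 and Atp6v0a2 and the d subunit genes Atp6v0d2 and Atp6v0d1 in each mouse (points) with the group mean and SD (bar and whiskers). Tcirg1 and Atp6v0d2 are lower in all 3 R-Het mice than in all 3 R-WT mice, and P-Ctrl mouse 1 is the highest point for both, at 128 and 158 FPKM. Atp6v0d1 stays between 73.1 and 87.0 FPKM in all 12 mice.

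The same P-Ctrl mouse stood out across the set. Of the 25 tested members it was the highest P-Ctrl mouse for 19, against 38.4% of all tested genes, and it was the highest for all 12 osteoclast markers listed, whose sum was 8122 FPKM against 4554 and 5135 in the other P-Ctrl mice. It was also the 1 P-Ctrl mouse without Xist transcript. Without it, the median log2 fold change of the members in the P cross was 0.06. With P-Ctrl mice 2 and 3 left out instead, which leaves it as the lone control, the median was -0.37 and no member passed. In the latter fit the lone sample is assumed to vary like the P-KO mice. The part of sex and of osteoclast content in these values was not tested.

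**Figure D3:**
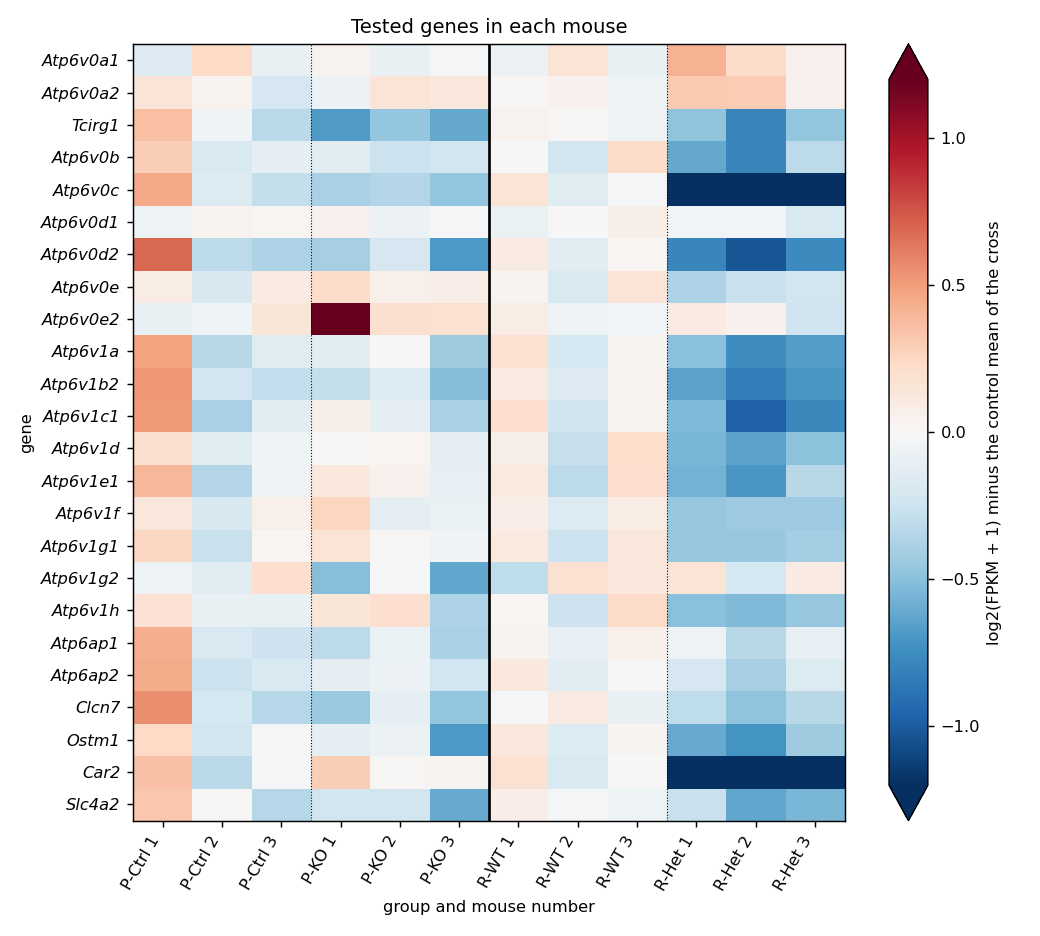
Colour gives log2(FPKM + 1) minus the control mean of the same cross for 24 tested members (rows, without Atp6v0c-ps2) in the 12 mice (columns). P-Ctrl mouse 1 is red in most rows, the 3 R-Het columns are blue in all but a few rows, and colours saturate at 1.2 in either direction, as they do for Atp6v0c and Car2 in R-Het and for Atp6v0e2 in P-KO mouse 1.

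Subunit c forms the proton-carrying ring of V0, and Atp6v0c encodes it. The files also list Atp6v0c-ps2, a copy on chromosome 6 whose coding stretch is nearly the same as that of Atp6v0c on chromosome 17. The first 120 bases of each are shown because they hold the 1 base that differs, in capitals, at position 111 counted from the A of the start codon. Both were taken from GENCODE transcripts on GRCm38. The stretch of Atp6v0c lies within chr17:24164842-24169284 on the minus strand and spans an intron, and that of the copy is chr6:37806086-37806205 on the plus strand.
Atp6v0c: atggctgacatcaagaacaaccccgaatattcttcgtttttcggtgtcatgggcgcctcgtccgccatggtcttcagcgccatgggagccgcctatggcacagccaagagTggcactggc
Atp6v0c-ps2: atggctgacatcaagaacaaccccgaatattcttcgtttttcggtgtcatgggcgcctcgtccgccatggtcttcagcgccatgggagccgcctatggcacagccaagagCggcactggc

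Over the 465 bases of coding sequence the substitution T111C (Atp6v0c first) was the only difference, with no gap, an identity of 99.78%. Of the 416 windows of 50 bases in it, 366 (88.0%) were identical in both genes. A read from such a window cannot be assigned to either gene by its sequence, so the levels of both are uncertain. The parts of the transcripts outside the coding stretch were not compared.

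The listed levels of this pair moved in opposite directions in R-Het. Atp6v0c stood at 708, 573 and 627 FPKM in R-WT and at 222, 174 and 201 in R-Het. Atp6v0c-ps2 stood at 16.9, 15.6 and 30.4 in R-WT and at 271, 240 and 271 in R-Het. The log2 fold changes were -1.67 (SE 0.12) and 3.63 (SE 0.22), and neither pair of groups overlapped. Added up, the pair stood at 725, 589 and 658 FPKM in R-WT and at 494, 414 and 472 in R-Het, so the sum was lower in every R-Het mouse as well. Fitted as 1 gene, the sum had a log2 fold change of -0.51 and did not pass (adjusted p = 0.074, in a range from 0.00099 to 0.392 over the alternatives for Atp6v0c), and 7 members were then called, all lower. The call of Atp6v0c, counted among the 8 lower members above, thus rests on its level apart from the copy.

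The share of the copy separated R-Het from the other 9 mice. It was 54.9%, 58.0% and 57.4% of the summed pair in R-Het and between 1.37% and 4.62% in every mouse of the other groups. In P-Ctrl Atp6v0c stood at 926, 603 and 556 FPKM and in P-KO at 516, 530 and 492, with a log2 fold change of -0.40 (SE 0.18, adjusted p = 0.265). The copy stood at 16.2 ± 4.72 FPKM in P-Ctrl and 18.4 ± 3.56 in P-KO (SD, n = 3).

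Atp6v0c lies 20.3 Mb from Runx2 on chromosome 17, the chromosome that carries the altered allele in R-Het. Among 629 tested genes of that chromosome, 12 (1.91%) were called in the R cross, against 1.88% of all tested genes with a position. Within 1 Mb of Atp6v0c, 1 of 59 other genes was called, and 7 of 294 (2.38%) were called in the stretch from Atp6v0c to Runx2. Clcn7, Atp6v0e and Atp6v1g2, 19.4, 17.8 and 9.3 Mb from Runx2, are described below with their functions. Atp6v1e2, 42.4 Mb from Runx2, was listed at 0 in all 12 mice. The copy lies on another chromosome than Runx2.

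**Figure D4:**
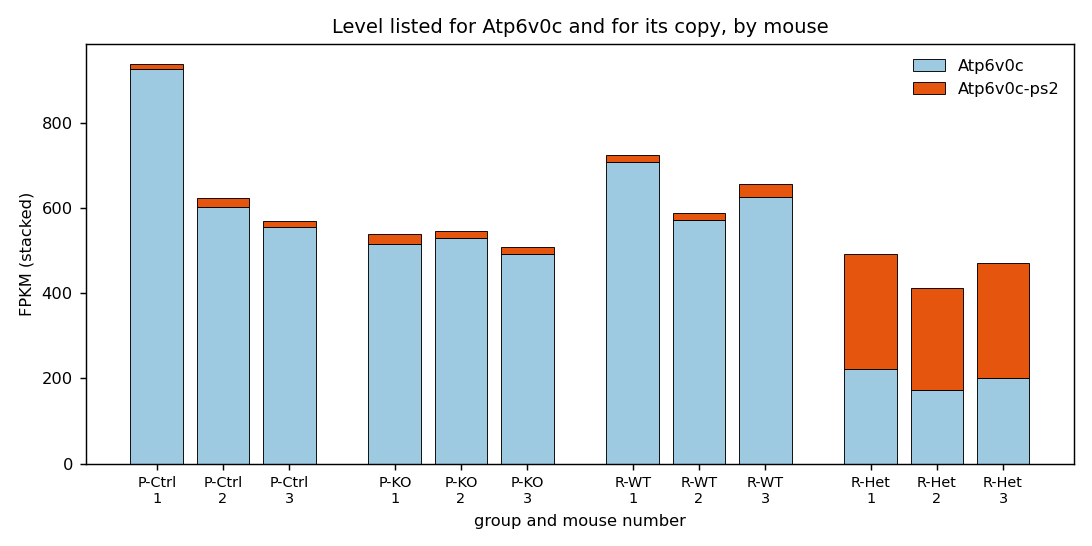
Stacked FPKM of Atp6v0c (blue) and Atp6v0c-ps2 (orange) in each of the 12 mice. The orange part is 54.9% to 58.0% of the bar in the 3 R-Het mice and at most 4.62% elsewhere, and the full bars of R-Het are the 3 lowest.

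The other V0 subunits were measured at high levels. Atp6v0b, the second proteolipid of the ring, stood at 324 ± 49.9 FPKM in R-WT and 219 ± 37.6 in R-Het (SD, n = 3), with a log2 fold change of -0.57 (adjusted p = 0.122) and no overlap. Atp6v0e stood at 590 ± 70.0 in R-WT and 481 ± 25.1 in R-Het, with a log2 fold change of -0.29 (adjusted p = 0.265) and no overlap. Its neuronal counterpart Atp6v0e2 stood between 2.24 and 4.11 FPKM in 11 mice and at 12.4 in P-KO mouse 1. Counting all V0 genes, 3 of 9 tested were called lower in R-Het, against 1.49% of all genes, Atp6v0c by its level apart from the copy among them. The summed V0 level was 1938, 1658 and 1959 FPKM in R-WT and 1121, 1058 and 1185 in R-Het. This sum counts Atp6v0c and leaves out its copy, so it shares the uncertainty of that split. Atp6v0c had a mean of 636 FPKM in R-WT and 199 in R-Het, and the copy had means of 21.0 and 261. None of the 9 V0 genes was called in the P cross.

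Most V1 subunits had their lowest levels of the R cross in R-Het. Of its 9 tested subunits 8 had all R-Het mice below all R-WT mice, against 10.4% of all genes. Called lower were 3, against 1.49% of all genes. The summed V1 level was 1749, 1385 and 1775 FPKM in R-WT and 1143, 1089 and 1172 in R-Het, against 1813, 1237 and 1435 in P-Ctrl and 1581, 1454 and 1313 in P-KO. R-Het and R-WT did not overlap, whereas P-KO lay within the range of P-Ctrl.

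The called V1 subunits were A, B2 and C1. Atp6v1a, the catalytic A subunit, stood at 130, 98.9 and 118 FPKM in R-WT and at 80.9, 68.1 and 71.9 in R-Het, with a log2 fold change of -0.64 (SE 0.12, adjusted p = 0.046). Atp6v1b2, its nucleotide-binding partner and the only B subunit detected in quantity here, stood at 170, 142 and 163 in R-WT and at 100, 89.2 and 97.0 in R-Het, with a log2 fold change of -0.72 (SE 0.10, adjusted p = 0.019). Atp6v1c1, which clamps V1 to V0, stood at 84.7, 62.1 and 75.0 in R-WT and at 50.4, 36.8 and 42.4 in R-Het, with a log2 fold change of -0.76 (SE 0.15, adjusted p = 0.049). None of these is restricted to osteoclasts. Between P-KO and P-Ctrl their log2 fold changes were -0.18, -0.32 and -0.14, with P-Ctrl mouse 1 the highest of all 6 mice for each.

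The remaining ubiquitous V1 subunits are stalk and regulatory parts. Atp6v1d, Atp6v1e1, Atp6v1f, Atp6v1g1 and Atp6v1h had log2 fold changes from -0.56 for Atp6v1d to -0.44 for Atp6v1g1 in the R cross, with adjusted p from 0.068 to 0.147, and none passed. The same 5 lay between -0.03 and 0.05 in the P cross. The neuronal Atp6v1g2 stood at 2.09 ± 0.543 FPKM in R-WT and 2.11 ± 0.415 in R-Het (SD, n = 3).

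The accessory subunits Atp6ap1 and Atp6ap2 act in assembly of the pump and are X-linked. Atp6ap1 stood at 132, 121 and 134 FPKM in R-WT and at 124, 102 and 121 in R-Het, and the groups overlapped, with a log2 fold change of -0.16 (SE 0.10, adjusted p = 0.506). Atp6ap2 stood at 102, 84.7 and 93.9 in R-WT and at 80.9, 70.6 and 83.0 in R-Het, without overlap, with a log2 fold change of -0.26 (SE 0.10, adjusted p = 0.283). The log2 fold changes for P-KO were -0.26 (SE 0.19) and -0.14 (SE 0.18). P-Ctrl mouse 1, without Xist, held the highest value of both genes, 194 and 129 FPKM.

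Of the 4 partners of acid secretion, 2 were called lower in R-Het, against 1.49% of all genes. Car2, encoding carbonic anhydrase 2, stood at 42.6, 32.8 and 37.6 FPKM in R-WT and at 15.5, 15.3 and 15.2 in R-Het. The log2 fold change was -1.24 (SE 0.10, adjusted p = 0.0054), and the R-Het mice were close to each other and far below R-WT. Between the P groups there was no such gap. Car2 stood at 39.3, 24.2 and 30.2 in P-Ctrl and at 37.8, 31.0 and 31.3 in P-KO, overlapping, with a log2 fold change of 0.11 (SE 0.17, adjusted p = 0.744). Car2 is also expressed in red cells and their precursors. The 7 tested erythroid markers had log2 fold changes from -1.15 to -1.01 in the R cross, none past the threshold. Summed levels of the erythroid list were 18361 to 20982 FPKM in R-WT and 9591, 19279 and 4777 in R-Het mice 1, 2 and 3. The part of red cell content in the Car2 values was not tested. The same 7 markers had log2 fold changes from -0.80 to -0.38 in the P cross.

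Ostm1, the partner that stabilises Clcn7, stood at 32.0, 25.8 and 29.8 FPKM in R-WT and at 18.9, 17.3 and 21.4 in R-Het, with a log2 fold change of -0.58 (SE 0.11, adjusted p = 0.048). Clcn7, the chloride and proton exchanger, stood at 20.5, 22.5 and 19.5 in R-WT and at 16.7, 14.6 and 16.3 in R-Het, with a log2 fold change of -0.37 (SE 0.09, adjusted p = 0.095). Neither overlapped, and only Ostm1 passed. Slc4a2, the anion exchanger, stood at 40.4, 37.8 and 36.7 in R-WT and at 31.6, 24.5 and 25.9 in R-Het, with a log2 fold change of -0.48 (SE 0.11, adjusted p = 0.075). The 3 genes had log2 fold changes of -0.29, -0.34 and -0.35 in that order in the P cross, and each overlapped. Slc4a2 is listed as 2 transcripts, and P-Ctrl mouse 3 gave 0.0796% of its level to the one that took 62.3% to 84.8% in the other 11 mice, so only the sum is used.

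**Figure D5:**
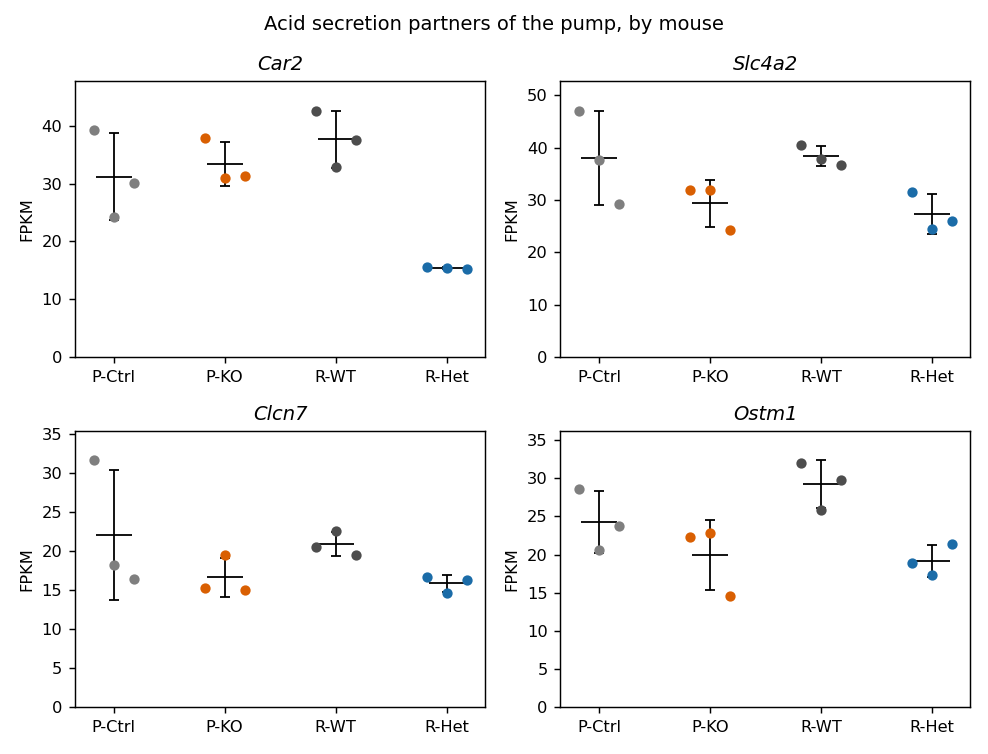
FPKM of Car2, Slc4a2, Clcn7 and Ostm1 in each mouse (points) with the group mean and SD (bar and whiskers). The R-Het points lie below the R-WT points in all 4 panels. The 3 R-Het values of Car2 lie between 15.2 and 15.5 FPKM, and the P-Ctrl and P-KO points overlap in each panel.

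The effects of the crosses were compared directly in an interaction, the log2 fold change in the P cross minus that in the R cross. Of the 25 members 2 passed, 1 in each direction, against 0.153% of all genes in either direction, 0.0919% lower and 0.0613% higher. Car2 differed by 1.35 (SE 0.22, adjusted p = 0.042) and Atp6v0c-ps2 by -3.44 (SE 0.34, adjusted p = 0.0053). Atp6v0c differed by 1.27 (adjusted p = 0.059) and did not pass. For Tcirg1 the difference was -0.003 (SE 0.21, adjusted p = 0.996), and for Atp6v0d2 it was 0.42 (SE 0.33, adjusted p = 0.604). Thus for most members a difference between crosses was not shown, although calls were made in one cross only. Car2 lost its call without any 1 of 9 libraries, with adjusted p from 0.061 to 0.115, and kept it only without P-Ctrl mouse 1, P-KO mouse 2 or R-WT mouse 2.

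How far the calls in the R cross rested on single mice was examined by leaving each out. Of the 9 called members, Atp6v0c, its copy and Car2 passed in all 6 such fits. Atp6v0d2 failed only without R-WT mouse 1, the female library (adjusted p = 0.064, the highest of a range from 0.030). Atp6v1b2 passed in 2 of the 6, Atp6v1a and Atp6v1c1 in 1, and Tcirg1 and Ostm1 in none, with the lowest adjusted p at 0.061 and 0.052. The number called was 3 without R-WT mouse 1, 4 without R-WT mouse 3, 4 without R-Het mouse 1, 4 without R-Het mouse 2, 5 without R-Het mouse 3 and 11 without R-WT mouse 2. Over all 13059 genes, 247 called in the main fit became 34, 112, 75, 130, 116 and 169 in the same order. Lost calls were thus not particular to the members. The log2 fold changes moved little, between -0.64 and -0.48 for Tcirg1 and between -0.92 and -0.77 for Atp6v0d2. No member passed when genes with low values were kept in the fit, which let 28 members be tested and gave 20 of them an unadjusted p below 0.05. None of the 25 passed when the unpaired test named in the methods was run gene by gene, where 17 had an unadjusted p below 0.05. Over all genes, 5 of 19006 passed without the filter and 1 of 13059 with the unpaired test. The counts of unadjusted p over all genes are not given for these alternatives. In the main fit 19 of the 25 members had an unadjusted p below 0.05, against 2013 of all 13059 genes.

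Osteoclast markers were examined beside the members. All 12 listed had a log2 fold change below 0 in the R cross, against 43.9% of all genes, with a median of -0.59. In 11 every R-Het mouse was below every R-WT mouse, against 10.4% of all genes. Calcr, the calcitonin receptor, at -1.03 (adjusted p = 0.032) and Dcstamp, needed for osteoclast fusion, at -0.98 (adjusted p = 0.018) passed. Acp5 at -0.65, Ctsk at -0.63, Mmp9, a matrix protease, at -0.46 and Nfatc1, the master regulator of osteoclast formation, at -0.25 did not, with adjusted p of 0.061, 0.086, 0.196 and 0.412. The level of Calcr was low, at 2.95, 2.46 and 1.99 FPKM in R-WT and 0.704, 0.447 and 0.959 in R-Het. Each R-Het mouse was thus below the filter value of 1 FPKM for Calcr. The summed level of the 12 ranged from 5155 to 6420 FPKM in R-WT and from 3366 to 4202 in R-Het. For P-KO all 12 were below 0, against 38.7% of all genes, with a median of -0.39 and none called. For 0 of them was every P-KO mouse below every P-Ctrl mouse, against 7.68% of all genes. P-Ctrl mouse 1 was the highest control for all 12. The sums ranged from 4554 to 8122 in P-Ctrl and from 4158 to 5270 in P-KO.

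With the mean of these 12 markers as a covariate, an alternative chosen after the data were seen, no member passed in the R cross. Of all 13059 genes, 3 passed in that fit. Tcirg1 then had a log2 fold change of -0.01, Atp6v0d2 of -0.39 and Car2 of -1.16, while that of Atp6v0c-ps2 was 3.45. Marker level and genotype are confounded in 6 mice with no overlap between groups, so their parts cannot be told apart. Set against Acp5, Atp6v0d2 stood at 0.0582 ± 0.00550 of its level in R-WT and 0.0499 ± 0.00145 in R-Het (SD, n = 3).

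The macrophage list was examined because osteoclasts and macrophages share precursors. None of its 7 tested markers was called in either cross, and their median log2 fold change was -0.05 in the R cross and -0.21 in the P cross, with sums of 324 to 342 FPKM in R-WT and 275 to 335 in R-Het. Cd68 was not matched to the table by name, so the list was examined without it. Of the transcripts, 396 kept only an identifier, and whether Cd68 is among them is not known from the names used. No marker of the macrophage or osteoclast list that was matched stood at 0 in all mice.

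Other genes of the pathway were mostly not called. None of the 11 assembly and regulatory factors of the pump, such as Vma21 and Tmem9, passed in either cross, with medians of -0.04 in R and 0.14 in P. None of the 5 other chloride channel family genes and none of the 11 tested further carbonic anhydrases and exchangers passed. Of 8 genes of ruffled border and lysosome traffic, 1 passed in the R cross. This was Snx10, a sorting nexin required for osteoclast acid secretion, at 125, 98.8 and 129 FPKM in R-WT and 59.4, 50.8 and 77.4 in R-Het, with a log2 fold change of -0.91 (adjusted p = 0.041). Lamp1 and Lamp2, membrane proteins of all lysosomes, had log2 fold changes of 0.05 and 0.06. Among the 4 MiT/TFE factors, which drive lysosomal genes, none passed. Mitf was at -0.53 (adjusted p = 0.075) and Tfeb at -0.0004 in the R cross.

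Lists for other cells of the calvaria were examined too. In the R cross 4 of 8 osteoblast markers had a log2 fold change below 0 and none was called. Against P-Ctrl all 8 were below 0 in P-KO and 1, Bglap, which encodes osteocalcin, was called at -1.95 (adjusted p = 0.040). Of 6 tested cartilage markers none was called in the R cross and 1, Col2a1, in the P cross, at -0.86 (adjusted p = 0.040). Neutrophil markers had a median of -1.47 in the R cross and neural markers a median of 0.76 in the P cross, none called. Of 10 skeletal muscle markers 8 were called lower in R-Het, against 1.49% of all genes, with a median of -4.44. In P-KO all 10 had a log2 fold change above 0, with a median of 2.87 and none called.

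Levels of several members ran closely together across the 12 mice. Pearson's r of log2(FPKM + 1) with Atp6v0d2 was 0.995 for Atp6v1b2, 0.958 for Atp6v1a, 0.918 for Clcn7 and 0.903 for Tcirg1, and 0.061 for Atp6v0d1 and -0.597 for Atp6v0a1. The closest among all tested genes outside the set were Slc37a2 (0.968), Gpr137b-ps (0.967), Acp5 (0.959), Rufy4 (0.958) and NM_009853 (0.976), a transcript whose identifier matched no symbol in the tables used. For Tcirg1 they were B4galnt1 (0.975), Spi1 (0.971), Gusb (0.961), Rftn2 (0.959) and Cdk18 (0.948). These describe 12 mice that share their genotype groups and the high P-Ctrl mouse 1, and no p is given.

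Promoters were searched for the motifs bound by MiT/TFE factors and by AP-1, since many members moved together. Windows from 250 bases before to 50 after the start, from RefSeq on GRCm38.p6, were held for 22 of the 30 members, not including Atp6v0a2, Atp6v0c-ps2, Atp6v0d2, Atp6v1b2, Atp6v1c1, Atp6v1g1, Atp6v1h and Car2. The E-box CACGTG, its own reverse complement, was found in 5 of the 22 (22.7%): Atp6v0b, Atp6v0d1, Atp6v0e, Atp6v1a and Clcn7. It was found in 8.09% of 27025 genes with a window. Of these 5, Atp6v1a was called in the R cross. The parts of 3 windows around the motif, in capitals, are shown for a V0 gene, a V1 gene and a partner, with up to 20 bases on each side and none past the start of the transcript.
Atp6v0b, chr4:117887340-117887385, minus strand: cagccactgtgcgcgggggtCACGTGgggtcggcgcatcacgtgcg
Atp6v1a, chr16:44139365-44139410, minus strand: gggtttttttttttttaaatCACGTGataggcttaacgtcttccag
Clcn7, chr17:25133356-25133390, plus strand: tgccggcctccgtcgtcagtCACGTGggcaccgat

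The windows of Atp6v0b and Clcn7 each hold a further CACGTG, that of Atp6v0b in lower case in the line above and that of Clcn7 after the start of the transcript, outside the part shown. On both strands, TCATGTG was found in Atp6v0c and Clcn7 (9.09% of the members with a window, against 4.31% of all genes). TGACTCA, the AP-1 motif, was found in none of the 22 windows and in 5.95% of all genes. A match describes these letters only.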

How the data were processed

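Total RNA of 12 newborn calvaria was sequenced from TruSeq libraries, 3 mice in each of the groups P-Ctrl, P-KO, R-WT and R-Het. The authors deposited FPKM per RefSeq transcript for each mouse. The submitters' processing notes name Bowtie 0.12.8 and mm10, and the program that computed FPKM is not given in the sources used here. FPKM are normalised to length and to mapped fragments, and counts were not used.

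FPKM of 30411 transcripts were summed per symbol into 23715 genes (29835 transcripts matched through NCBI tables, 180 through GENCODE, 396 kept their identifier). Genes reaching 1 FPKM in 3 or more mice, 13059 in all, were tested on log2(FPKM + 1) with limma 3.58.1 (trend) in R 4.3.3, with a separate fit of 6 mice per cross and Benjamini-Hochberg adjustment over all genes tested. The interaction was fitted on all 12 mice. Depth was estimated from the smallest FPKM steps. Nothing in the labels says that mice came from separate litters, so p-values measure the spread between these mice. With 3 against 3 an exact test of 1 value cannot reach a p below 0.10, and none is given.

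Members and lists were chosen with earlier results of these data known. All 30 members were accounted for, and given in full were those with an adjusted p below 0.05 in either cross or in the interaction, Tcirg1 and Atp6v0d2 with their ubiquitous counterparts, Atp6v0c with its copy, the 4 acid secretion partners and the X-linked subunits. From the marker and pathway lists at most 4 genes past the threshold were named, with Acp5, Ctsk, Mmp9 and Nfatc1. Further genes named from lists (Vma21, Tmem9, Lamp1, Lamp2, Mitf, Tfeb) were chosen after their values were seen. Alternatives were another pseudocount (0.1), no filter on low values, 2 rescalings, all 12 mice in 1 fit, a replicate block, the unpaired test of the methods, each mouse left out, libraries with Xist above 1 FPKM left out, Atp6v0c added to its copy and, chosen after seeing the data, the osteoclast marker mean as a covariate.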

Additional observations from a re-analysis of the deposited data

Results flagged for a closer look

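For 2 members the change in the P cross differed from that in the R cross by a test of the difference itself (limma interaction over 12 mice, adjusted over all genes tested). Car2 differed by 1.35 on the log2 scale (adjusted p = 0.042), all 3 R-Het mice being below all R-WT mice and the P groups overlapping. Atp6v0c-ps2 differed by -3.44 (adjusted p = 0.0053), all 3 R-Het mice being above all R-WT mice and the P groups overlapping. Over the alternatives the adjusted p ranged from 0.012 to 0.118 for Car2 and from 0.00047 to 0.054 for Atp6v0c-ps2. The level of the copy is uncertain because most of its coding sequence is identical to that of Atp6v0c.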

How the results depend on the processing

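Depths of 7700000 to 11900000 fragments and 3 mice per group limit what small changes could pass, and the 5 members near 0 could not be tested. No paired reading was adopted: deviations of mice with the same number correlated at 0.18, 0.259 and 0.053 in the P cross and at 0.005, -0.047 and -0.084 in the R cross. The replicate block gave 0, 6 and 3 members called in the P cross, the R cross and the interaction, against 0, 9 and 2 without it, and moved the count over all genes in the R cross from 247 to 90 and in the interaction from 20 to 136. Each P-Ctrl and P-KO mouse correlated best with its own number, the R mice did not.

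In the P cross 1 member (Tcirg1) was called with all 12 mice in 1 fit. That fit called 717 of all 13059 genes in the P cross, against 205 in the main fit. No member was called under the other alternatives that left more than 1 mouse in each group, leaving out mice included (0 to 0). In the R cross 9 became 0 without the filter on low values, 0 with the unpaired test of the methods, 3 with all 12 mice in 1 fit, 3 without libraries with Xist above 1 FPKM, 0 with the marker covariate and 3 to 11 when mice were left out. In the interaction 2 became 1 without the filter, 1 with size factors, 1 with the pair added up, 0 without the Xist libraries and 1 to 3 when mice were left out. Over all genes, 247 called in the R cross became 5 without the filter and 1 with the unpaired test. That count was 95 with all 12 mice in 1 fit, 34 without the Xist libraries and 3 with the marker covariate. When mice were left out it lay between 34 and 169. In the interaction, 20 over all genes became 6 without the filter, 14 with size factors and 14 with the pair added up, and 2 to 164 when mice were left out. Rescaling to the same sum moved the median interaction over all genes from 0.035 to -0.086, and the members' median from 0.395 to 0.256.

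Changes of sign occurred only in comparisons in which the member did not pass in the main fit. In the P cross, the log2 fold change without the Xist libraries was 0.135 for Atp6v0a1, -0.089 for Atp6v0a2, 0.05 for Atp6v0d1 and -0.234 for Car2, and after rescaling to the same sum it was -0.027 for Atp6v0a2. With the marker covariate it was 0.122 for Atp6v0d2, 0.222 for Atp6v1a, 0.096 for Atp6v1b2, 0.266 for Atp6v1c1, 0.093 for Clcn7, 0.087 for Atp6ap1 and 0.19 for Atp6ap2, and in the R cross 0.233 for Atp6ap1 and 0.16 for Atp6ap2. When mice were left out in the P cross, it ranged from -0.101 to 0.099 for Atp6v0a1, -0.03 to 0.148 for Atp6v0a2, -0.048 to 0.015 for Atp6v0d1, -0.35 to 0.057 for Atp6v1a, -0.334 to 0.117 for Atp6v1c1, -0.049 to 0.289 for Car2 and -0.268 to 0.086 for Atp6ap2. Of the 569 values of single members under alternatives, 455 kept direction and side of the threshold, 87 no longer passed, 4 newly passed and 23 changed sign. The cause of these changes was not tested.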
